A study of Mus musculus with 12 samples.

Results

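The genes described here are 40 genes of fatty acid oxidation and ketone metabolism, out of the 54532 genes in the count table. They were chosen by name as genes of beta-oxidation, ketone bodies, lipolysis and the PPAR regulators. The rule names no measured value, but the list was written with earlier results of these data known. The same holds for the further pathway genes and the markers below, so shares called in any of these lists are not those of a blind choice. RNA was sequenced from testes of newborn male mice that carry the transgene Tg(Pou5f1-EGFP)2Mnn, in which regulatory sequence of Pou5f1 (OCT4) drives green fluorescent protein (GFP) in germ cells. Pregnant dams received dexamethasone (dex), a synthetic glucocorticoid, at 10 μg per gram of body weight on embryonic days E17.5 and E18.5, the pups received the same dose on postnatal day PN0, and testes were taken on PN1. Control animals received saline on the same days. The 12 libraries form 4 groups of 3, namely GFP-positive germ cells after dex or saline, and GFP-negative somatic cells after dex or saline. All 4 groups carry the transgene. Per the study, a replicate pooled testes from at least 2 litters dosed independently, so that a library stands for a pool of animals. The somatic fraction is every live single cell without GFP, so it mixes Sertoli, Leydig, peritubular, stromal, endothelial and blood cells.

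Mitochondrial beta-oxidation shortens fatty acids by rounds of dehydrogenation, hydration, a further dehydrogenation and thiolytic cleavage, and long chains first enter the mitochondrion on carnitine. The acetyl-CoA that results feeds the citric acid cycle or, above all in the liver, the synthesis of ketone bodies. In fasting, glucocorticoids and the PPAR family of nuclear receptors are known to raise genes of lipolysis and fatty acid use in the liver, adipose tissue and muscle. In the testis, Sertoli cells are known to burn fatty acids and to supply germ cells with lactate.

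The libraries held 18459692 to 25178477 counts, and no 2 replicates of a group were copies of each other. Levels below are normalised read counts (CPM) whose scaling factors were set by TMM across the 12 libraries together, in the order of replicates 1, 2 and 3. Where a library had no count, its level may still be as high as 3 counts, a limit that lay between 0.114 and 0.165 CPM. A gene is said to be called, to rise or to fall where its adjusted p was at or under 0.05 in the quasi-likelihood test of edgeR, adjusted by Benjamini-Hochberg over every gene tested. The 8 germ cell markers summed to 3120 to 3320 CPM in germ libraries and to 6.88 to 9.79 CPM in somatic libraries. The 8 Sertoli markers summed to 5360 to 6040 CPM in somatic libraries and to 46.8 to 86.8 CPM in germ libraries. The 5 adipocyte markers summed to at most 0.64 CPM in somatic libraries, where Lep and Cfd, which code for leptin and adipsin, had no counts. In germ libraries they summed to 4.91 to 7.04 CPM, mostly from Adrb3, a beta-adrenergic receptor.

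In somatic cells dex raised 5 of the members and lowered none. These were G0s2, Angptl4, Pdk4, Acaa2 and Eci2, an inhibitor of lipolysis, a secreted inhibitor of lipoprotein lipase, a brake on glucose oxidation and a pair of beta-oxidation enzymes. Rises ranged from 1.32-fold for Eci2 to 3.69-fold for G0s2. Of the members, 39 passed the filter on low counts, so that 12.8% of those tested were called, against 3.91% of the 16766 genes tested overall. The called share among rises was 2.74% of all genes, and among falls it was 1.17%. The remaining 34 tested members were not called, and the median log2 fold change of the tested members was 0.10, against -0.01 for all genes. Over all genes 70.1% of the called genes were higher, a share that became 53.5% when libraries were scaled to their totals. The 5 members were also called under that scaling.

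Markers of other cell types moved in the same somatic libraries. The 8 peritubular and stromal markers summed to 5090 to 6780 CPM after saline and to 8330 to 9710 CPM after dex, and 4 of them were called higher. The 10 macrophage markers summed to 56.8 to 97.6 CPM after saline and to 25.4 to 37.2 CPM after dex, with 3 called lower. The 7 Leydig markers summed to 535 to 616 CPM after saline and 480 to 592 CPM after dex, with 1 called lower, and the 8 Sertoli markers summed to 5610 to 5830 CPM and 5360 to 6040 CPM with none called. Erythroid markers summed to 248 to 389 CPM after saline and to 82.7 to 292 CPM after dex, with 2 of 7 called lower, and the 10 endothelial markers to 269 to 299 CPM and 257 to 326 CPM with 1 called lower. The part of these changes in the somatic rises of the members was not tested, and in bulk samples fewer cells of a type and less RNA per cell cannot be told apart. In germ libraries the Sertoli markers summed to 71.1 to 86.8 CPM after saline and to 46.8 to 61.2 CPM after dex. The Leydig markers went from 15.9 ± 1.41 CPM (SD, n = 3) down to 10.6 ± 1.80 CPM, the erythroid markers from 7.85 to 9.62 CPM down to 4.49 to 7.74 CPM, and the macrophage markers from 10.5 to 14.6 CPM up to 16.1 to 18.7 CPM. The saline and dex sums did not overlap for these 4 lists, although none of their genes was called, and their part in the germ cell rises was not tested. Only 4 of the 10 macrophage markers were tested in germ cells, 2 with positive and 2 with negative log2 fold changes. After dex, 1 macrophage marker was called higher in germ cells than in somatic cells, so the sum does not stand for each marker.

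G0s2, whose product binds and blocks the triglyceride lipase coded by Pnpla2, lies on chromosome 1 (mm10, 193272161 to 193273217, minus strand). It read 5.71, 6.80 and 7.24 CPM in saline somatic cells and 25.1, 23.9 and 22.3 CPM in dex somatic cells. The groups lay far apart, and the log2 fold change was 1.88 ± 0.16 (SE, n = 3 per group, edgeR adjusted p = 6.51e-06). In germ cells G0s2 was lower in both groups. It read 1.43, 0.854 and 1.37 CPM after saline and 0.987, 1.97 and 1.48 CPM after dex, which overlapped (edgeR adjusted p = 0.819).

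Pnpla2 codes for adipose triglyceride lipase, which releases the first fatty acid from stored triglyceride, and lies on chromosome 7 (mm10, 141455198 to 141460743, plus strand). It was the member that rose in germ cells. Saline germ libraries read 44.4, 46.0 and 47.6 CPM and dex germ libraries read 78.0, 95.6 and 85.5 CPM. The groups did not overlap, and the log2 fold change was 0.90 ± 0.09 (SE, n = 3 per group, edgeR adjusted p = 0.0004), or 1.86-fold. Somatic cells read 43.7, 37.7 and 43.6 CPM after saline and 51.7, 55.4 and 53.1 CPM after dex. These groups did not overlap either, but the log2 fold change of 0.39 ± 0.11 missed the threshold (edgeR adjusted p = 0.0808). In a DESeq2 fit of the same libraries the somatic rise of Pnpla2 was called.

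Promoters are shown for members that rose after dex, Pnpla2 in germ cells and G0s2, Pdk4 and Eci2 in somatic cells, because both the glucocorticoid receptor and the PPARs bind known DNA elements. The sequences are from RefSeq on GRCm38.p6 and run from 250 bases before to 50 bases after the start annotated there. For Eci2 the window lies within the gene as counted (mm10, 34977748 to 35027096, minus strand) and not at its outer start. RefSeq promoters were found for 34 of the 40 members. Angptl4 had no entry, and the window of Acaa2 is not shown here. Capitals mark a GC box (GGGCGG) or a CCAAT box (CCAAT) on either strand, and the motifs do not overlap each other here. The sequences follow for Pnpla2 (chr7:141454938-141455237, plus strand), G0s2 (chr1:193273139-193273438, minus strand), Pdk4 (chr6:5496229-5496528, minus strand) and Eci2 (chr13:34994095-34994394, minus strand).
Pnpla2: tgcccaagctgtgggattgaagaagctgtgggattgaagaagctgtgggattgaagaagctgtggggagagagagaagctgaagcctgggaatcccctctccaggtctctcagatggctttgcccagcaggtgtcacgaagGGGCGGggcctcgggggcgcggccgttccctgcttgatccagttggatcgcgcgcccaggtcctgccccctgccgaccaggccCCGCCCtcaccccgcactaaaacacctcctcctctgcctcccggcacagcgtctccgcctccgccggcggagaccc
G0s2: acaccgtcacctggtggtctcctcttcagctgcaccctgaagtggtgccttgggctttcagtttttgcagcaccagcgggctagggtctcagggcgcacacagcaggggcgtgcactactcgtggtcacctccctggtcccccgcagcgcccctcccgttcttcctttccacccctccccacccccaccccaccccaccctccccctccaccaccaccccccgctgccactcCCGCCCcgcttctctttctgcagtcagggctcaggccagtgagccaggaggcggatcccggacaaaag
Pdk4: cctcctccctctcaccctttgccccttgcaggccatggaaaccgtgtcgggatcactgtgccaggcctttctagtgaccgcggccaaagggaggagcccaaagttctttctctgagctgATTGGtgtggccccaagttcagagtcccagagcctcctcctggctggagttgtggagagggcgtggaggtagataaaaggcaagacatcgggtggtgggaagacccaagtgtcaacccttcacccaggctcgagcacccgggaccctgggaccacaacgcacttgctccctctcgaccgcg
Eci2: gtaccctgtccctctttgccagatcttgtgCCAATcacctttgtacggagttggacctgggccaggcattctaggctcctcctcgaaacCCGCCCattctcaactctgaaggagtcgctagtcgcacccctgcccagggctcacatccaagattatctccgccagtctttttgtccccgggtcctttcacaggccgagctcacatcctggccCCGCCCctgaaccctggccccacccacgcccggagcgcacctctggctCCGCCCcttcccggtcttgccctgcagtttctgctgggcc
The promoters of Pnpla2 and Eci2 held 2 and 3 GC boxes, that of G0s2 held 1, and that of Pdk4 held a CCAAT box and no GC box. The 34 members had 38 promoters, as some genes had more than 1. A GC box was present in 28 of these 38 promoters (27 of the 34 members) and in 35.7% of the 32851 promoters of the same length. A CCAAT box was present in 17 of the 38 (16 of the 34 members) and in 37.4% of all promoters. The full palindromic glucocorticoid response element, searched on both strands as GNACA and TGTNC spaced by 3 bases, was in 0.475% of all promoters and in none of the members' windows. The single hexamer AGAACA was in 19% of all promoters and in those of 2 members, Hadh and Acot1. The direct repeat bound by PPARs, searched on both strands as a pair of AGGNCA spaced by 1 base, was in 0.381% of all promoters and in none of the members'. Elements this rare would mostly be absent from any 38 promoters, so their absence says nothing particular of the members. Sites outside the window were not searched.

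Among the genes classed here as fasting-type targets, Angptl4 and Pdk4 rose in somatic cells and Ucp2 was not called. Angptl4 (chromosome 17, mm10, 33773750 to 33781575, minus strand) read 59.1, 65.5 and 79.6 CPM after saline and 139, 166 and 117 CPM after dex. Every dex library was above every saline library, with a log2 fold change of 1.08 ± 0.13 (SE, n = 3 per group, edgeR adjusted p = 0.000165). Pdk4, the pyruvate dehydrogenase kinase that turns cells from glucose towards fatty acids, read 7.53, 8.58 and 6.58 CPM after saline and 13.8, 19.0 and 10.8 CPM after dex. The log2 fold change was 0.98 ± 0.22 (edgeR adjusted p = 0.0172). The spread among dex libraries was wide, and leaving out dex replicate 2, saline replicate 1 or saline replicate 3 ended the call, at adjusted p values of 0.104, 0.0597 and 0.0858.

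Ucp2, a carrier of the inner mitochondrial membrane, was the member with the second highest level in saline somatic cells on the FPKM scale, after Acaa2. It read 705, 702 and 742 CPM after saline and 541, 652 and 604 CPM after dex. All dex somatic libraries were lower, but the log2 fold change of -0.23 ± 0.09 was not called (edgeR adjusted p = 0.204). Germ cells read 31.0, 26.2 and 30.4 CPM after saline and 38.4, 35.3 and 36.0 CPM after dex, where all dex libraries were higher without a call (log2 fold change 0.31 ± 0.11, edgeR adjusted p = 0.187).

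**Figure D1:**
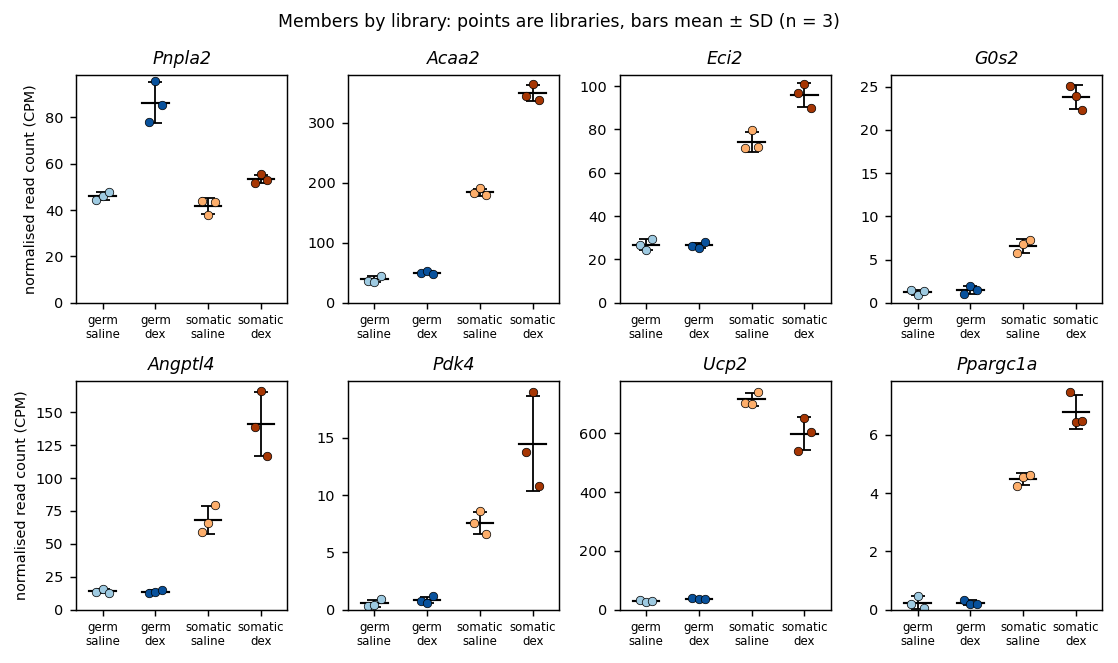
Normalised read count (CPM, linear axes from 0) of 8 members in each library, with points for libraries and bars for the mean ± SD of 3 libraries per group. G0s2, Angptl4, Acaa2 and Pdk4 were highest in dex somatic cells, while Pnpla2 was highest in dex germ cells at 78.0 to 95.6 CPM.

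Of the 20 members grouped here as the core of mitochondrial beta-oxidation, Cpt1c and Eci2 among them, dex raised 2 in somatic cells and none in germ cells. Acaa2, the thiolase that cleaves medium and long acyl chains, read 183, 191 and 179 CPM in saline somatic cells and 344, 364 and 338 CPM in dex somatic cells. The spread within each group was small beside the gap, with a log2 fold change of 0.95 ± 0.07 (SE, n = 3 per group, edgeR adjusted p = 3.27e-06), or 1.94-fold. Germ cells read 37.0, 35.2 and 45.1 CPM after saline and 49.0, 53.0 and 47.8 CPM after dex. All dex germ libraries were higher, but the log2 fold change of 0.34 ± 0.11 was not called (edgeR adjusted p = 0.153).

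Eci2, an isomerase that moves double bonds of unsaturated chains into place, read 71.2, 79.7 and 72.0 CPM in saline somatic cells and 97.0, 101 and 89.8 CPM in dex somatic cells. It rose by a log2 fold change of 0.40 ± 0.09 (edgeR adjusted p = 0.0142). Leaving out dex replicate 1 or 2 ended the call (adjusted p values of 0.0557 and 0.0694), as did leaving out saline replicate 1 or 3 (0.074 and 0.0661). Of the 64-base words in the exons of Eci2, 8.43% also occur in the locus Gm15287, so some reads may be shared. In germ cells it read 26.5, 24.4 and 29.5 CPM after saline and 26.1, 25.4 and 27.9 CPM after dex, with overlapping groups.

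The other 18 core members were not called in either population after dex. In somatic cells they include all 4 acyl-CoA dehydrogenases (Acadm, Acadl, Acads and Acadvl), which catalyse the first step and had log2 fold changes of -0.02 to 0.20. Both subunits of the trifunctional protein, Hadha and Hadhb, were not called, and neither were Hadh and Echs1. The flavoprotein genes Etfa, Etfb and Etfdh, which pass electrons on to the respiratory chain, ranged from -0.15 to 0.03. In germ cells the core members ranged from -0.44 for Echs1 to 0.59 for Decr1, and 6 of the 20 had an unadjusted p under 0.05, against 14.7% of the 18550 genes tested.

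Among genes of the carnitine shuttle, none of the 5 was called after dex in either population. Cpt1a, the outer membrane enzyme that commits long chains to oxidation, read 169, 183 and 169 CPM in saline somatic cells and 182, 192 and 183 CPM in dex somatic cells. In germ cells it read 81.1, 75.4 and 79.3 CPM after saline and 90.5, 90.7 and 89.7 CPM after dex. The germ libraries did not overlap, yet the log2 fold change was only 0.19 ± 0.08 (edgeR adjusted p = 0.272). Cpt1c, the form best known from the brain, read 26.6, 20.4 and 31.5 CPM in saline germ cells and 30.5, 33.5 and 30.8 CPM in dex germ cells. Somatic cells read 48.4, 33.9 and 50 CPM after saline and 60.4, 42.5 and 54.1 CPM after dex, with groups that overlapped. Slc25a20, the carrier that exchanges acylcarnitine for carnitine, had the largest log2 fold change of this role in both populations, at 0.46 ± 0.15 in germ cells (edgeR adjusted p = 0.158) and 0.29 ± 0.14 in somatic cells (edgeR adjusted p = 0.327).

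None of the peroxisomal members was called after dex. Ehhadh, the bifunctional enzyme of peroxisomal oxidation, read 3.89, 5.11 and 1.81 CPM in saline somatic cells and 3.07, 3.51 and 3.36 CPM in dex somatic cells. Germ cells read 2.85, 2.03 and 1.17 CPM after saline and 2.54, 2.09 and 1.77 CPM after dex. All these groups overlapped. Acaa1a, the peroxisomal thiolase, was higher in every dex somatic library at a log2 fold change of 0.23 ± 0.09 (edgeR adjusted p = 0.222), and 14.1% of its 64-base words are shared with Acaa1b.

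None of the PPAR regulators was called after dex. Ppara, the receptor that drives fatty acid oxidation in liver, read 2.63, 3.09 and 2.44 CPM in saline germ cells and 3.67, 3.76 and 4.11 CPM in dex germ cells. The log2 fold change was 0.49 ± 0.25 with no overlap (edgeR adjusted p = 0.392). In somatic cells Ppara read 2.95, 2.56 and 2.86 CPM after saline and 3.46, 3.21 and 1.93 CPM after dex. Ppard, the most widely expressed PPAR, read 41.5, 40 and 38.7 CPM in saline somatic cells and 43.3, 42.2 and 41.5 CPM in dex somatic cells. It read 23.8, 22.6 and 24.1 CPM in saline germ cells and 19.2, 30.0 and 22.5 CPM in dex germ cells, and the germ groups overlapped.

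Pparg, the adipocyte receptor, had no counts in the 3 saline somatic libraries and read 0.439, 0 and 0.0495 CPM in dex somatic cells. In germ cells it read 0.134, 0.373 and 0.488 CPM after saline and 0.423, 0.797 and 1.10 CPM after dex. Summed over libraries this was 20 counts against 53 counts, a ratio of 2.39 with an exact 95% interval of 1.40 to 4.21 that covers counting error only, and the test across replicates did not call it (edgeR adjusted p = 0.4). Ppargc1a, the coactivator of mitochondrial genes known as PGC-1α, read 4.23, 4.55 and 4.62 CPM in saline somatic cells and 7.47, 6.43 and 6.48 CPM in dex somatic cells. The groups did not overlap, but the log2 fold change of 0.64 ± 0.25 was not called (edgeR adjusted p = 0.205). In germ cells Ppargc1a was at 0.178, 0.480 and 0.0488 CPM after saline and 0.329, 0.190 and 0.191 CPM after dex, and did not pass the filter on low counts.

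Members of fat storage and uptake other than G0s2 and Pnpla2 were not called after dex. Plin2, which coats lipid droplets, read 60.2, 54.3 and 53.1 CPM in saline somatic cells and 59.1, 72.4 and 56.7 CPM in dex somatic cells. In germ cells it read 11.9, 11.0 and 10.8 CPM after saline and 12.9, 12.9 and 14.1 CPM after dex, without overlap and without a call (log2 fold change 0.23 ± 0.15, edgeR adjusted p = 0.52). Lipe, the hormone-sensitive lipase, had log2 fold changes of 0.10 ± 0.13 in germ cells and 0.20 ± 0.15 in somatic cells. Cd36, a fatty acid translocase, read 1.58, 2.6 and 1.81 CPM in saline somatic cells and 1.70, 1.98 and 0.445 CPM in dex somatic cells. In germ cells it had 0.0891, 0.160 and 0.244 CPM after saline and 0.376, 0.0380 and 0 CPM after dex. Fabp4, the adipocyte fatty acid binding protein, read 2.26, 1.60 and 1.57 CPM in saline somatic cells and 1.54, 2.18 and 0.940 CPM in dex somatic cells. Single germ libraries held it at 0.134 CPM after saline and at 0.239 CPM after dex, and the other two of each group had no counts. Both genes were too low for the test in germ cells, and no dex effect was detectable there at this depth.

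The thioesterases free fatty acids from CoA, and Acot1 and Acot2 are neighbours on chromosome 12 that share part of their sequence. Acot1 read 36.2, 45.3 and 29.4 CPM in saline somatic cells and 55.4, 51.6 and 40.4 CPM in dex somatic cells, a log2 fold change of 0.45 ± 0.15 (edgeR adjusted p = 0.116). Acot2 read 13.9, 15.8 and 16.9 CPM after saline and 16.1, 14.1 and 16.9 CPM after dex in somatic cells. Both pairs of groups overlapped. In germ cells Acot1 read 2.72, 4.27 and 3.85 CPM after saline and 3.71, 4.40 and 3.82 CPM after dex, and Acot2 read 0.980, 1.60 and 1.95 CPM after saline and 0.658, 1.90 and 1.77 CPM after dex. Of their 64-base words, 16.7% of Acot1 and 23.9% of Acot2 occur in the other gene, so the split of reads between them is uncertain.

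Of the ketone body members, Oxct1 codes for the transferase that activates acetoacetate and Bdh1 for the mitochondrial hydroxybutyrate dehydrogenase. Oxct1 read 142, 199 and 146 CPM in saline somatic cells and 126, 127 and 131 CPM in dex somatic cells. Bdh1 read 23.6, 28.5 and 27.1 CPM in saline somatic cells and 20, 21.3 and 23.3 CPM in dex somatic cells. Every dex library was lower for both genes, but neither was called, at log2 fold changes of -0.30 ± 0.10 (edgeR adjusted p = 0.117) and -0.26 ± 0.13 (edgeR adjusted p = 0.351). With no filter on low counts Oxct1 was called lower (edgeR adjusted p = 0.0281). In germ cells Oxct1 read 72.6, 73.5 and 73.5 CPM after saline and 76.8, 72.8 and 80.6 CPM after dex. Bdh1 read 13.5, 15 and 13.3 CPM in saline germ cells and 14.2, 14.7 and 22.1 CPM in dex germ cells. The germ groups overlapped for both.

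**Figure D2:**
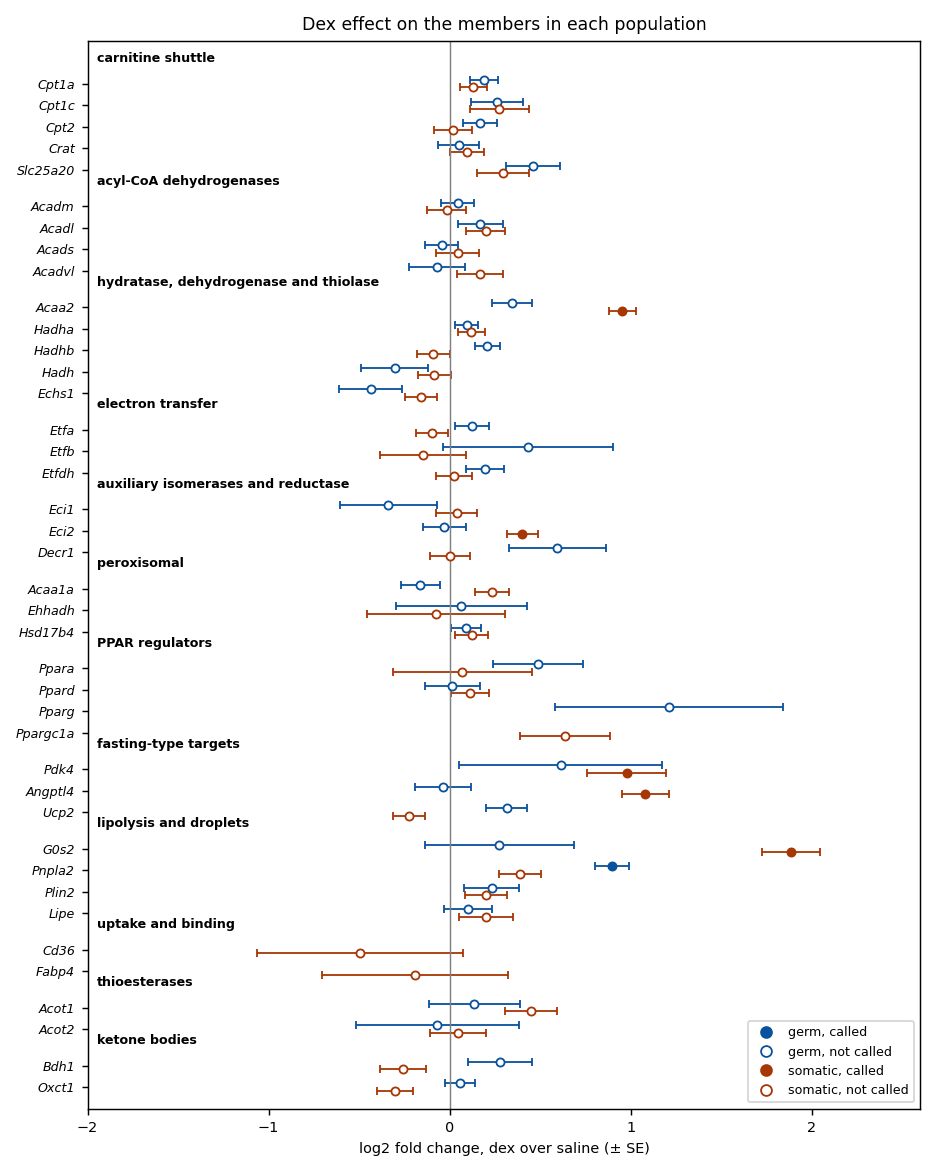
Log2 fold change of dex over saline (x axis, ± SE from edgeR) for every tested member, grouped by role, in germ cells (blue) and somatic cells (brown), with filled points for called members. Pnpla2 is the filled germ point, and G0s2, Angptl4, Pdk4, Acaa2 and Eci2 are the filled somatic points.

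In germ cells, 37 members were tested after dex and 1 was called, which is 2.70% of them against 1.25% of the 18550 genes tested, or 0.739% called higher and 0.507% called lower. The median log2 fold change of the tested members was 0.14 against -0.003 for all genes, and 28 of the 37 values were positive. Libraries of the dex and saline groups did not overlap for 10 members, 9 of them higher after dex, where 20.1% of all genes tested did not overlap. In somatic cells the libraries did not overlap for 12 members, 9 higher and 3 lower, where the share of all genes was 21.5%. Of 36 members tested in both populations, none was called in both and 6 were called in either.

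The dex effect differed between the populations for 3 of the 40 members, by a contrast over all 12 libraries, where 0.827% of 20551 genes were called, 0.414% in each direction. The log2 effect in germ cells minus that in somatic cells was -1.08 ± 0.20 for Angptl4 (edgeR adjusted p = 0.016), whose germ libraries read 13.5, 15.8 and 12.5 CPM after saline and 12.5, 13.6 and 15 CPM after dex. For Acaa2 the difference was -0.58 ± 0.13 (edgeR adjusted p = 0.0412), and for Ucp2 it was 0.57 ± 0.12 (edgeR adjusted p = 0.0374), with opposite directions in the populations. The differences for G0s2 (-1.57 ± 0.37, edgeR adjusted p = 0.0569) and Pnpla2 (0.54 ± 0.14, edgeR adjusted p = 0.085) missed the threshold, and so did those for Eci2 (-0.40 ± 0.14, adjusted p = 0.224) and Pdk4 (-0.33 ± 0.53, adjusted p = 0.885). Pdk4 was low in germ cells, at 0.312, 0.427 and 0.878 CPM after saline and 0.752, 0.607 and 1.15 CPM after dex. Calls of a difference were unstable to the loss of 1 library. Without one of the 12 libraries, the adjusted p for Acaa2 ran from 0.0273 to 0.0936 and was over the threshold in 10 of 12 cases, and for Ucp2 it ran from 0.0298 to 0.117 and was over it in 9. Angptl4 lost the call without dex germ replicate 1 (0.0545) or saline germ replicate 2 (0.0546).

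Most members were lower in germ cells than in somatic cells before any dex. In saline, 28 of the 39 tested members were lower in germ cells, 4 were higher and 7 were not called. The called share of 82.1% stands against 76.5% of the 18870 genes tested, and by direction 36.7% of all genes were called lower and 39.8% higher. For 34 of the members tested the libraries of the populations did not overlap, where 79.5% of all genes did not. The median log2 fold change of germ over somatic cells was -1.14 for the members and 0.07 for all genes. Scaling to library totals moved the median of all genes to 0.21, and then 27 members were called lower and 6 higher.

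The 4 called members with the largest fall towards germ cells in saline were Fabp4, Ucp2, Ppargc1a and Pdk4. The Sertoli markers summed to 71.1 to 86.8 CPM in saline germ libraries and to 5610 to 5830 CPM in saline somatic libraries. The part of somatic RNA in the low germ levels of these members was not tested. Ucp2 was 25.6-fold lower in germ cells (log2 fold change -4.68 ± 0.10, edgeR adjusted p = 2.91e-12), and Pdk4 was 14.6-fold lower (-3.87 ± 0.39, edgeR adjusted p = 1.86e-06). Fabp4 had 116 counts over the saline somatic libraries and 3 over the saline germ libraries, a ratio of 37.1 with an exact 95% interval of 12.4 to 182 for counting error. For Ppargc1a the counts were 288 and 14, a ratio of 19.7 with an interval of 11.6 to 36.5. Cd36 had 130 counts against 10, a ratio of 12.5 (6.56 to 26.6). Pparg went the other way, with 20 counts in saline germ cells and none in saline somatic cells. With the 20 counts taken as exact and 3 counts as the somatic floor, it was at least 6.96-fold higher in germ cells. After dex it had 53 counts in germ cells and 9 in somatic cells, a ratio of 5.04 (2.46 to 11.6).

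The members called higher in germ cells in saline were Hadhb, Hsd17b4, Acadvl and Cpt2. Hadhb, the thiolase subunit of the trifunctional protein, read 155, 164 and 162 CPM in germ cells and 78.8, 85.8 and 85.7 CPM in somatic cells (log2 fold change 0.88 ± 0.08, edgeR adjusted p = 5.2e-07). Its partner Hadha differed less, at 264, 266 and 275 CPM in germ cells and 222, 237 and 244 CPM in somatic cells (log2 fold change 0.13 ± 0.07, edgeR adjusted p = 0.11). Hsd17b4, a multifunctional enzyme of peroxisomal oxidation, read 118, 117 and 138 CPM in germ cells and 77.0, 78.3 and 67.9 CPM in somatic cells (0.67 ± 0.10, edgeR adjusted p = 3.99e-05). Each gene was higher in every germ library. Cpt2, the inner membrane carnitine enzyme, read 52.7, 51.4 and 57.2 CPM in germ cells and 40, 40.8 and 41.5 CPM in somatic cells (0.34 ± 0.10, edgeR adjusted p = 0.0079), and the call was lost without saline germ replicate 3 (adjusted p = 0.0524). Acadvl, the very long chain dehydrogenase, read 43.9, 41.2 and 50.8 CPM in germ cells and 28.2, 35.9 and 27.7 CPM in somatic cells (0.50 ± 0.13, edgeR adjusted p = 0.00416). Acadvl overlaps the exons of Dvl2, which had 405% of its counts, and the strand setting of the counting is not given in the sources used here, so reads of the pair may not be separated. Of the 64-base words of Hadhb, 17.9% are shared with the locus Gm13910.

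Within single steps of the pathway some members were lower and others higher in germ cells. Among the enzymes of hydration, dehydrogenation and thiolysis, the log2 fold change was -3.58 ± 0.14 for Hadh and -3.25 ± 0.10 for Echs1, the short chain dehydrogenase and hydratase of mitochondria, and -2.30 ± 0.10 for Acaa2, while Hadhb was higher. Saline Hadh read 11.2, 17.3 and 15.3 CPM in germ cells and 157, 183 and 160 CPM in somatic cells. Echs1 read 12.6, 13.6 and 12 CPM in saline germ cells and 115, 123 and 109 CPM in saline somatic cells, although it overlaps Paox, which had 32.1% of its counts. The acyl-CoA dehydrogenases spanned -1.14 for Acadl to 0.50 for Acadvl, and Acadm was not called at -0.13 ± 0.10 (edgeR adjusted p = 0.257). All 3 electron transfer genes were lower, from -0.52 for Etfdh to -3.58 for Etfb, and Etfb shares 41.4% of its 64-base words with Gm45233. All 3 auxiliary enzymes were lower as well, with Decr1 at -3.40 ± 0.17 and Eci1 at -2.88 ± 0.18. Both thioesterases were at -3.43, and both ketone body members were lower, Oxct1 at -1.21 ± 0.12 and Bdh1 at -0.99 ± 0.14. Plin2 was lower at -2.38 ± 0.12, whereas Lipe (0.15 ± 0.16) and Pnpla2 (0.08 ± 0.11) were not called.

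On the deposited FPKM scale, which divides by gene length so that genes can be set side by side, the highest members in saline somatic cells were Acaa2 at 116 ± 1.87 FPKM (SD, n = 3) and Ucp2 at 98.2 ± 5.38 FPKM. They were followed by Etfa at 44.1 ± 1.78, Oxct1 at 41.8 ± 6.70 and Cpt1a at 38.7 ± 0.42 FPKM, and Oxct1 overlapped both of these neighbours within its spread. In saline germ cells the order was another one, with Hsd17b4 at 36.4 ± 3.68 FPKM and Hadha at 30.7 ± 0.817 FPKM on top, and the libraries of Hsd17b4 were all above those of Hadha. Acaa2 at 25.7 ± 3.62, Acads at 24.8 ± 0.41, Hadhb at 24.2 ± 0.756 and Etfa at 23.2 ± 0.556 FPKM came next, all below Hadha in every library but overlapping their neighbours among these 4 within their spread. For most members the length used equals all annotated exons joined, so it can exceed that of the RNA present, and the order depends on it. It was 8730 bases for Hadha and 3404 for Hsd17b4, whose saline germ means were 269 and 124 CPM.

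**Figure D3:**
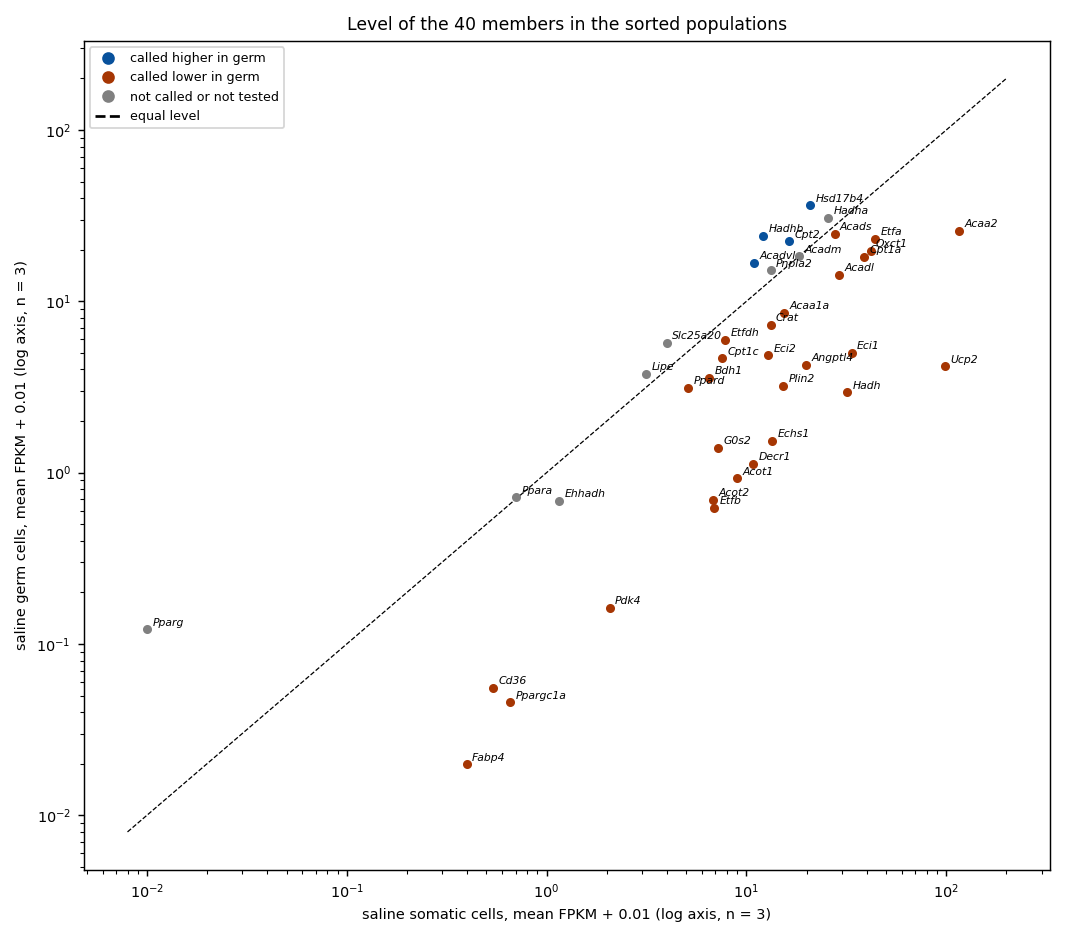
Mean FPKM of each member in saline somatic cells (x axis) and saline germ cells (y axis), both on log axes with 0.01 added, coloured by the edgeR call of germ against somatic cells. Most points lie under the dashed line of equal level, Ucp2, Hadh and Echs1 far below it, and Hadhb and Hsd17b4 lie above it.

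After dex the same comparison called 31 of the 38 members tested, 26 lower and 5 higher in germ cells, where 76.3% of all genes were called, 35.7% lower and 40.5% higher. The libraries did not overlap for 34 of the 38, against 80.1% of all genes. Of 38 members tested in both states, 29 were called in the same direction in both, 26 lower and 3 higher, and none in opposite directions. The other 4 were called in one state alone, Acadvl and Bdh1 in saline and Pnpla2 and Slc25a20 after dex. After dex Hadhb read 197, 184 and 178 CPM in germ cells and 71.3, 79.3 and 78.9 CPM in somatic cells, and Hsd17b4 read 138, 134 and 128 CPM against 77.9, 80.9 and 78.2 CPM. Cpt2 read 59.7, 56.9 and 65.7 CPM in dex germ cells and 40.3, 40.8 and 39.8 CPM in dex somatic cells. These 3 genes were higher in every germ library. Acadvl read 40.3, 56.1 and 33.8 CPM in dex germ cells and 37.6, 32.6 and 30.2 CPM in dex somatic cells, where the groups overlapped. Pnpla2, level between populations in saline, was higher in germ cells after dex (log2 fold change 0.62 ± 0.10, edgeR adjusted p = 9.23e-05). For G0s2 the gap went from 5.61-fold in saline (-2.49 ± 0.31) to 16.6-fold after dex (-4.06 ± 0.25), and for Angptl4 from 5.09-fold (-2.35 ± 0.14) to 10.8-fold (-3.44 ± 0.14). These gaps share their libraries with the dex comparisons and are not independent of them.

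Of 89 further genes of the pathway, taken from a list that covers carnitine, acyl-CoA synthesis, ketone metabolism, lipases, transport and peroxisomes, dex raised 5 of the 67 tested in somatic cells and 2 of the 74 tested in germ cells, and lowered none in either. These shares are 7.46% against 3.91% of all genes in somatic cells, and 2.70% against 1.25% in germ cells. Acat1, the acetoacetyl-CoA thiolase, read 193, 212 and 184 CPM in saline somatic cells and 164, 176 and 176 CPM in dex somatic cells, and was not called (-0.16 ± 0.08, edgeR adjusted p = 0.335).

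Ech1, a dienoyl-CoA isomerase, read 171, 170 and 167 CPM in saline somatic cells and 263, 291 and 259 CPM in dex somatic cells (0.71 ± 0.08, edgeR adjusted p = 8.82e-05). Acot7, a cytosolic thioesterase, read 30.7, 32.1 and 25.6 CPM after saline and 50, 54.3 and 47.3 CPM after dex in somatic cells (0.81 ± 0.12, edgeR adjusted p = 0.000642). In germ cells Acot7 read 72.9, 74.4 and 90.2 CPM after saline and 60.3, 71.4 and 65.7 CPM after dex (-0.28 ± 0.10, edgeR adjusted p = 0.2). Its dex effect differed between the populations by -1.05 ± 0.16 (edgeR adjusted p = 0.00721). Both genes stayed apart between dex and saline in every somatic library.

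Vldlr, the very low density lipoprotein receptor, read 17.9, 22 and 12.4 CPM in saline somatic cells and 26.9, 36.2 and 28.8 CPM in dex somatic cells (0.85 ± 0.18, edgeR adjusted p = 0.0114). Lipg, endothelial lipase, read 4.43, 6.41 and 7.24 CPM after saline and 13.9, 12.4 and 8.70 CPM after dex (0.99 ± 0.24, edgeR adjusted p = 0.0298). Pdp1, the phosphatase that opposes the PDK kinases, read 87.1, 79.6 and 74.6 CPM after saline and 117, 95.9 and 109 CPM after dex (0.45 ± 0.10, edgeR adjusted p = 0.0158). None of these groups overlapped, but each call was lost without some single library. The adjusted p for Vldlr became 0.0702 without dex replicate 2 and 0.0582 without saline replicate 3. For Lipg it became 0.125, 0.101, 0.129 and 0.069 without dex replicates 1 and 2 and saline replicates 1 and 2. For Pdp1 it became 0.0874, 0.0677, 0.0546 and 0.0937 without dex replicates 1 and 3 and saline replicates 2 and 3.

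The pathway genes that rose in germ cells were Lipa, lysosomal acid lipase, and Abcd2, a peroxisomal importer of very long chain fatty acids. Lipa read 28.1, 28.0 and 27.0 CPM after saline and 45.0, 41.1 and 39.9 CPM after dex (0.59 ± 0.11, edgeR adjusted p = 0.0142). Abcd2 read 28.5, 32.7 and 29.2 CPM after saline and 49.4, 45.9 and 49.9 CPM after dex (0.67 ± 0.10, edgeR adjusted p = 0.00669). Dex germ libraries were above saline libraries in each case. Somatic Lipa read 36.1, 40.1 and 38.0 CPM after saline and 34.8, 36.9 and 37.5 CPM after dex, and somatic Abcd2 read 8.76, 11.5 and 4.19 CPM after saline and 3.46, 6.78 and 9 CPM after dex. The dex effect on Lipa differed between the populations by 0.66 ± 0.15 (edgeR adjusted p = 0.0451), a call that was lost without any 1 of the 12 libraries (adjusted p 0.0649 to 0.107), and the difference for Abcd2 was not called (1.02 ± 0.40, edgeR adjusted p = 0.282). Leaving out dex replicate 1, saline replicate 1 or saline replicate 2 ended the germ call of Lipa (adjusted p values of 0.0678, 0.0837 and 0.0734), and leaving out saline replicate 1 ended that of Abcd2 (0.0629).

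**Figure D4:**
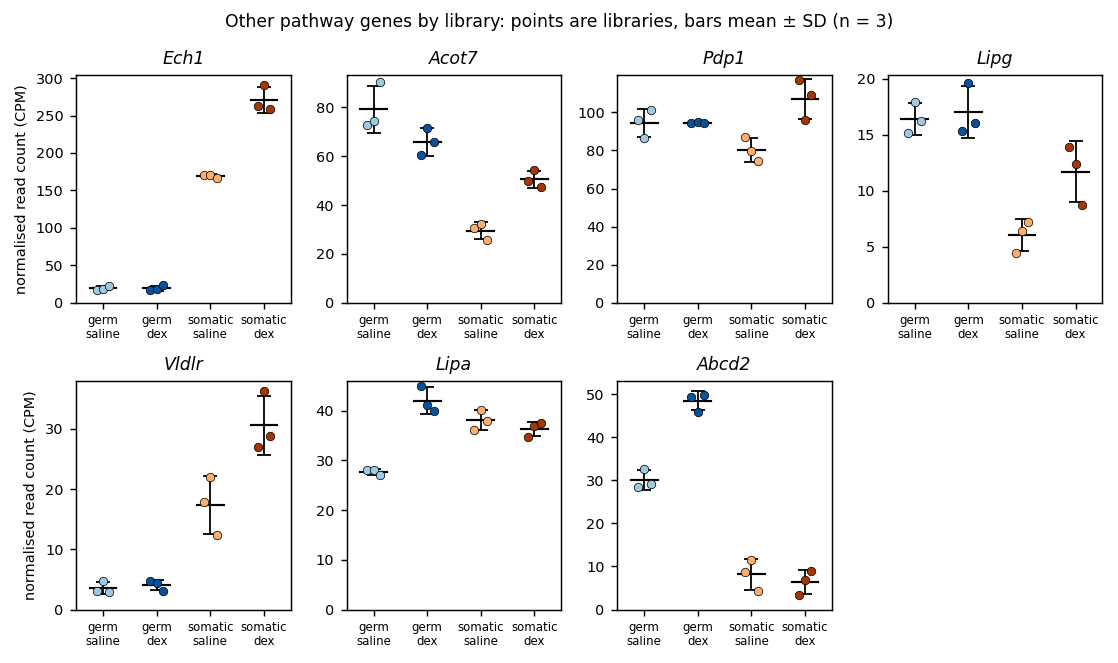
Normalised read count (CPM, linear axes from 0) of the 7 further pathway genes called after dex, with points for libraries and bars for the mean ± SD of 3 libraries per group. Ech1, Acot7, Pdp1, Lipg and Vldlr are higher in dex than in saline somatic cells, and Lipa and Abcd2 are higher in dex than in saline germ cells.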

How the data were processed

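The deposited counts are raw read counts per gene, which the authors made by aligning paired-end reads of poly-dT selected RNA to mm10 with HISAT2 2.0.5 and counting with featureCounts 1.5.0-p3, per the submitters' processing notes. The deposited FPKM values are those counts divided by gene length and library size by the authors, and served to compare levels between genes and for alternative fits. The annotation release and strand setting are not given in the sources used here. The authors' tables of their own dex comparisons hold log2 fold changes and p-values and were not used.

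Raw counts were tested with the quasi-likelihood F test of edgeR 4.0.16 in R 4.3.3, two-sided, with TMM scaling, after filterByExpr had dropped low genes (minimum count 10). Each comparison was fitted on its 6 libraries, and the difference between dex effects as a contrast over all 12. P-values were adjusted by Benjamini-Hochberg over all genes tested and called at 0.05. The standard error is the log2 fold change divided by the square root of F. Groups and replicate numbers came from the labels. Same-numbered libraries correlated at most weakly in their deviations (-0.088 to 0.045), and the first fit used no replicate block. Between germ and somatic cells in saline, same-numbered pairs correlated at 0.037 to 0.045 and the others at -0.029 to -0.0086. A weak pairing there is possible. The edgeR test was tried on counts simulated from its own model. Such a trial cannot show how the test behaves where real data depart from that model.

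The members, the pathway and marker lists and the rule for named genes were chosen with earlier results of these data known. Values in every library are given for members called in a dex comparison or in the difference, for the 4 called members with the largest log2 fold change in each direction of germ against somatic cells in saline, and for a fixed list of 18 members. Pathway genes are named where called after dex, with Acat1 fixed, and some genes of the pathway list are not reported here. Of the gene identifiers, 99.8% were in GENCODE M21, 98.3% of them with the same start and end. Shared reads were judged by words of 64 bases in transcripts of that release. Alternatives were DESeq2 1.42.0, limma 3.58.1 on counts and on log2(FPKM + 0.1) and log2(FPKM + 1), other scalings and filters, 1 fit over 12 libraries, a replicate block and leaving out each library. Library totals of 18459692 to 25178477 counts leave a floor of 0.114 to 0.165 CPM. Intervals cover counting error only, and floors cover only that of a library or group without counts.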

Additional observations from a re-analysis of the deposited data

Results flagged for a closer look

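The dex effect differed between germ and somatic cells for 3 members and 2 further genes of the pathway, by the edgeR contrast over all 12 libraries. As log2 effect in germ cells minus that in somatic cells, it was -0.58 for Acaa2 (adjusted p = 0.0412), with somatic cells 1.94-fold and germ cells 1.27-fold higher after dex. It was -1.08 for Angptl4 (adjusted p = 0.016), which was 2.12-fold higher in somatic cells and 0.974-fold in germ cells. It was 0.57 for Ucp2 (adjusted p = 0.0374), which was lower in 3 of 3 dex somatic libraries and higher in 3 of 3 dex germ libraries than in any saline library of the same population, with neither change called alone. It was -1.05 for Acot7 (adjusted p = 0.00721), at 1.76-fold in somatic cells and 0.826-fold in germ cells. It was 0.66 for Lipa (adjusted p = 0.0451), at 1.51-fold in germ cells and 0.980-fold in somatic cells. The call of Acot7 held without each of the 12 libraries (adjusted p 0.00756 to 0.0199), and that of Lipa was lost without any 1 of them.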

How the results depend on the processing

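Each comparison was recomputed under 10 other settings (9 for the difference between dex effects) and without each library in turn. Pnpla2 was called in germ cells in every setting, and Acaa2, Angptl4 and G0s2 in somatic cells. In germ cells members called numbered 2 with no filter, which added Slc25a20, and 1 to 2 without a library. In somatic cells they numbered 8 with no filter (7 higher and 1, Oxct1, lower), 3 in both limma fits on FPKM and in the fit over 12 libraries (Eci2 and Pdk4 lost), and 3 to 5 without a library. For the difference between populations they numbered 5 by DESeq2, 0 by limma on log2(FPKM + 0.1) and by limma-voom, and 0 to 4 without a library. Members called between populations stayed within 29 to 34 in saline and 29 to 33 after dex.

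All genes called in germ cells, 231 at first, numbered 675 by DESeq2, 767 with no filter, 6 and 12 by limma on log2(FPKM + 0.1) and log2(FPKM + 1), 142 in the fit over 12 libraries and 49 to 265 without a library. In somatic cells they numbered 655 at first, 1061 with no filter, 251 and 281 by the FPKM fits and 354 to 547 without a library. Genes whose dex effect differed numbered 170 at first, 620 by DESeq2, 706 with no filter, 262 with at least 10 counts in every library, 57 by limma on log2(FPKM + 0.1), 66 by limma-voom and 79 to 172 without a library. The share of called genes that were higher in germ cells after dex went from 59.3% to 69.3% with library totals, 47.7% with no filter and 83.3% and 75% by the FPKM fits. In somatic cells it went from 70.1% to 53.5% with library totals and 86.5% and 82.2% by the FPKM fits, and for the difference from 50% to 67% with library totals, 34.9% by limma on log2(FPKM + 1), 39.4% by limma-voom and 34.6% to 54.7% without a library. The causes were not tested.

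The replicate block gave 65 genes called in germ cells and 90 for the difference, where 1 member, Angptl4, was called. Same-numbered libraries correlated at -0.088 to 0.045 in their deviations, with all same-numbered pairs of saline germ and somatic libraries positive. With the block, 33 members were called between populations in saline, against 32 without it. In that block the log2 fold change was -0.0094 for Ppard in germ cells and 0.016 for Ehhadh in somatic cells, signs opposite to the first fit. Other uncalled values that turned sign were those of Acot2 in somatic cells with library totals (-0.011), Ehhadh in somatic cells by limma on log2(FPKM + 0.1) (0.028) and limma-voom (0.014), and Ppara between populations in saline with library totals (0.031) and by the FPKM fits (0.016 and 0.0076). Without single libraries, uncalled log2 fold changes that turned sign ranged in germ cells from -0.11 to 0.062 for Angptl4, -0.32 to 0.27 for Acot2, -0.036 to 0.27 for Acot1, -0.21 to 0.41 for Ehhadh, -0.090 to 0.043 for Eci2 and -0.18 to 0.15 for Ppard. In somatic cells they ranged from -0.081 to 0.30 for Ppara, -0.048 to 0.0061 for Lipa, -0.61 to 0.00033 for Abcd2, -0.0091 to 0.13 for Acot2, -0.52 to 0.075 for Fabp4 and -0.39 to 0.22 for Ehhadh. The difference for Pdk4 ranged from -0.64 to 0.20. Depth limits Pparg, Fabp4, Cd36 and, in germ cells, Ppargc1a, Pdk4 and G0s2.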
